A study of Homo sapiens with 24 samples.

Results

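EPZ015666 inhibits PRMT5, the enzyme that places symmetric dimethyl marks on arginines of proteins such as the Sm proteins of the spliceosome. The response to it after 3 days was compared between BT549, a breast cancer cell line, and OVCAR8, an ovarian cancer cell line. The quantity described is the line difference: the change from DMSO vehicle to EPZ015666 in BT549 minus the same change in OVCAR8, gene by gene. A positive value means that a gene rose more, or fell less, in BT549. It rests on 8 of the 24 libraries of the series: 2 replicates, named A and B, of BT549 with DMSO, BT549 with 5 µM EPZ015666, OVCAR8 with DMSO and OVCAR8 with 5 µM EPZ015666, each cultured with the agent or vehicle for 3 days before stranded sequencing of poly(A) RNA. Each line had its own DMSO libraries, so the 2 effects share no control. The labels give no culture or passage for A and B. The p-values are therefore set against variation between libraries that could be technical. Each tissue is represented by 1 line here, and line and tissue of origin cannot be told apart.

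PRMT5 works in a complex with WDR77, and CLNS1A presents Sm proteins to it for assembly of splicing particles. Loss of its activity is known to alter splicing and, through it, the output of many genes. Among the programmes followed below, interferon-stimulated genes encode antiviral proteins and are switched on through ISGF3, which binds the interferon-stimulated response element (ISRE). YAP is a coactivator of the Hippo pathway that acts through TEAD factors on genes of adhesion and matrix. ATF4 is the transcription factor of the amino acid and stress response, and several enzymes of serine synthesis are among its targets.

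The deposited values are RPKM, reads per kilobase of gene, scaled to library depth, and the length behind them is the whole gene span with introns. Levels are therefore per kilobase of span, and long genes with long introns have low values. Changes are on the log2(RPKM + 1) scale, which understates the change of genes near 1 RPKM, while folds are ratios of mean RPKM. A gene was tested when its mean over the 4 day 3 libraries was at least 1 RPKM in each line, which 5343 of 16591 genes met. The test was limma over these 8 libraries with two-sided p-values adjusted by the Benjamini-Hochberg method over all 5343 genes, and a gene passed at an adjusted p under 0.05. The 8 libraries held between 23.75 M and 28.98 M recovered reads. Reads at 10 genes of a ribosomal RNA locus took 1.388% of BT549 EPZ015666 replicate A and 0.7998% of OVCAR8 DMSO replicate A, against 0.2446% to 0.2944% in the other 6 libraries. The median difference between replicates A and B was 0.0874 in BT549 DMSO and 0.0726 in BT549 EPZ015666, and 0.0346 and 0.0486 in the matching OVCAR8 groups, on the log2 scale.

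The labelled tissues were checked against defining markers. BT549 held GATA3 at 4.17 to 5 RPKM and TFAP2C at 1.95 to 2.2, with VIM at 107 to 123 and KRT8 at no more than 0.0474. Other breast markers were higher in OVCAR8 controls: TFAP2A averaged 3.19 RPKM there and 2.39 in BT549 controls, KRT17 3.39 and 0.00755, FOXA1 0.597 and 0.0327, and PGR 0.157 and 0. The 9 breast markers in the table summed to 13 to 13.3 RPKM in BT549 controls and 10.6 to 10.9 in OVCAR8 controls. OVCAR8 held KRT8 at 25.4 to 27.8 RPKM, KRT18 at 171 to 180 and VIM at 97.6 to 106. The Müllerian markers PAX8, WT1 and MUC16 were near 0 in OVCAR8, at no more than 0.0734, 0.0584 and 0.000509 RPKM. Among ovarian markers MSLN alone was above 1 RPKM there. The endothelial markers PECAM1, CDH5 and KDR summed to at most 0.022 RPKM in any library, and the immune markers in the table to at most 1.07.

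The promoters of 5 genes are printed because their gene lists held line differences of both signs: the 4 interferon-stimulated genes that passed, of which 3 leaned one way and 1 the other, and CTGF, whose line difference had the opposite sign to those of the other 5 tested YAP targets. They are RefSeq sequences of the 250 bases before the start of the gene on GRCh38.p14, on the strand of the gene, with IFI6 at chr1:27672193-27672442 (minus), BST2 at chr19:17405631-17405880 (minus), SAMD9 at chr7:93117980-93118229 (minus), IFI44 at chr1:78649539-78649788 (plus) and CTGF, listed by RefSeq as CCN2, at chr6:131951373-131951622 (minus). Capitals mark matches on either strand to the core of the ISRE (GAAA, any 2 bases, GAAA) in the first 4, and to CATTCC, the TEAD motif, in CTGF. Overlapping matches were counted separately.
IFI6: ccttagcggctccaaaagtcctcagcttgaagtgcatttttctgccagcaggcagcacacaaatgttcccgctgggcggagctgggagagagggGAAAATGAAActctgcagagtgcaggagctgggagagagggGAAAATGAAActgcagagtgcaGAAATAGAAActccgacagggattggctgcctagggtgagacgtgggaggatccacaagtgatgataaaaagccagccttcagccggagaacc
BST2: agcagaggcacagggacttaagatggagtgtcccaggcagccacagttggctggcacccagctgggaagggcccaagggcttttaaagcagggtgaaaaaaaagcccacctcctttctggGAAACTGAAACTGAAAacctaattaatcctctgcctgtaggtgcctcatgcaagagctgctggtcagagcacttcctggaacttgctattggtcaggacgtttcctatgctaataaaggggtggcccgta
SAMD9: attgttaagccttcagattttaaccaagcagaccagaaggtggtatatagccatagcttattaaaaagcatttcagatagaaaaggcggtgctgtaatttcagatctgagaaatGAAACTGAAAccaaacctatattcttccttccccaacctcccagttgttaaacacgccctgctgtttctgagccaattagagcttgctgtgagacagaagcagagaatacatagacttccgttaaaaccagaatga
IFI44: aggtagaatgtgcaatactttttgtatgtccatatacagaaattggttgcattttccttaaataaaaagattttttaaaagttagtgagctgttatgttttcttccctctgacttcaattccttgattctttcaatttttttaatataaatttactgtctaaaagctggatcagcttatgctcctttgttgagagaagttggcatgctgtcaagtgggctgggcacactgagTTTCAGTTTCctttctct
CTGF: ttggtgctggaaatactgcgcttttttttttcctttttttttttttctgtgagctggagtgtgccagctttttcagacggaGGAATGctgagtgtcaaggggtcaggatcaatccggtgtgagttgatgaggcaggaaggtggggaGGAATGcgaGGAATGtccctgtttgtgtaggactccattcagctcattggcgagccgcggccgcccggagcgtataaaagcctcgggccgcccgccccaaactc

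The ISRE letters occurred in 3.07% of 27305 promoters of this length. IFI6 held 3 matches, whose first bases lie 156, 115 and 93 bases before the start. BST2 held 2 overlapping matches at 130 and 124 bases, SAMD9 held 1 at 136 bases and IFI44 held 1 at 18 bases. These letters were thus present in all 4 promoters. The line difference was negative for IFI6, BST2 and SAMD9 and positive for IFI44. The genes were chosen as interferon-stimulated, so the matches cannot decide what sets the sign, which was not tested. For IRF7, also looked up for these letters, no promoter was matched. The TEAD letters occurred in 11.9% of the promoters. CTGF held 3 matches, at 169, 104 and 95 bases, while the windows of NT5E and AXL held none. No promoter was matched to CYR61, and those of AMOTL2 and FJX1 were not searched, so the YAP targets are compared only in part.

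The line difference passed the test for 121 of 5343 genes (2.26%), 74 positive (1.38%) and 47 negative (0.88%). Of these, 108 are protein-coding. Their size had a median of 0.501 on the log2 scale and ran from 0.254 to 3.31, and 7 genes reached a difference of 1 or more. At an unadjusted p under 0.05 there were 1071 genes. For comparison, the drug effect itself passed in 1061 genes in BT549 (19.9%), 475 up (8.89%) and 586 down (11%), and in 1163 in OVCAR8 (21.8%), 465 up (8.7%) and 698 down (13.1%). Across genes, which are not independent replicates, the 2 effects correlated with r = 0.435. Of the 532 genes past the threshold in both lines, 511 moved the same way and 21 moved in opposite ways. A further 529 genes passed in BT549 alone, but the difference between lines passed in only 39 of them. In OVCAR8 alone 631 passed, and the difference passed in 42. For the remaining genes that passed in a single line, the test did not show that the lines differ.

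**Figure D1:**
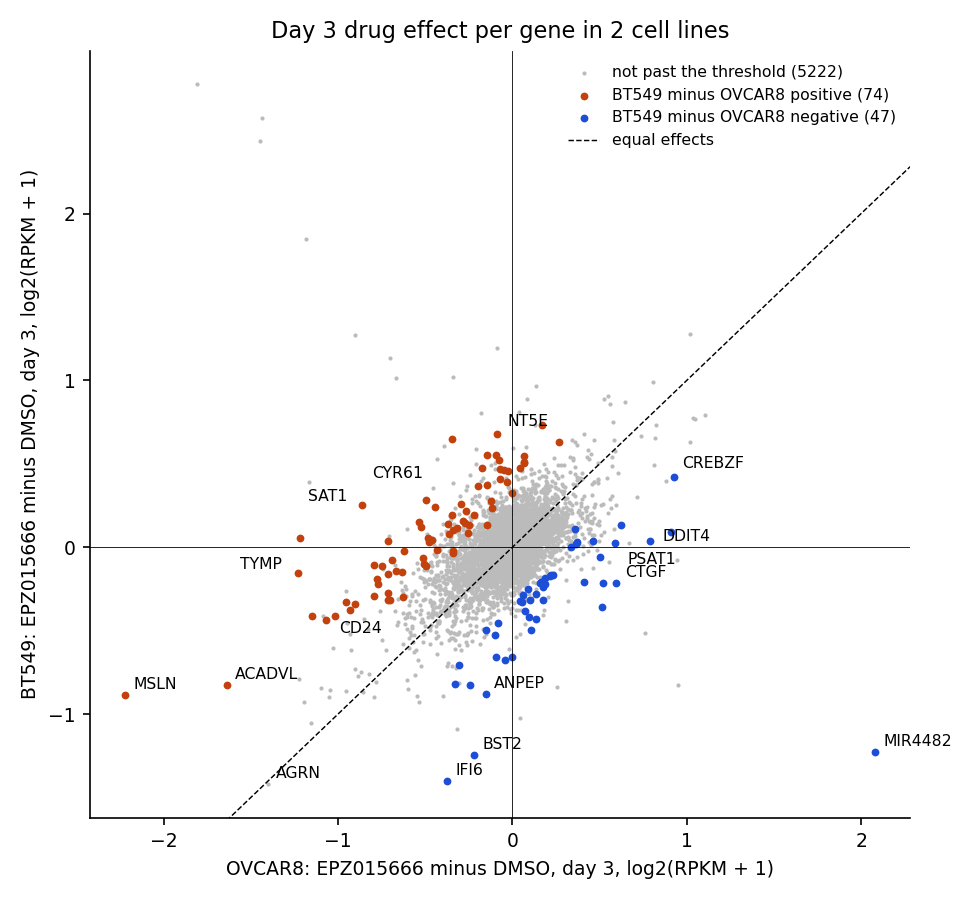
Each point is a gene, with the EPZ015666 minus DMSO change in OVCAR8 on the x axis and in BT549 on the y axis, both in log2(RPKM + 1) at day 3. The 74 genes with a positive and the 47 with a negative line difference lie above and below the dashed line of equal effects. AGRN lies on that line far from 0, and the 4 grey points at the upper left, with a wide spread between replicates, are RMRP, RNA5-8SN2, FP236383.3 and FP671120.4.

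The 121 genes fall into 4 kinds. The effect passed only in BT549 for 39 (19 up, 20 down) and only in OVCAR8 for 42 (13 up, 29 down). In 19 the effect passed with the same sign in both lines, 17 of them down in both, and 14 of the 19 moved further in OVCAR8. In the remaining 21 genes (0.393% of those tested) the effects passed with opposite signs, 12 up in BT549 and 9 up in OVCAR8. In all 121 genes (100%) the 4 EPZ015666-minus-DMSO differences of one line lay wholly on one side of those of the other, which was also true of 37.1% of all tested genes. Leaving out each library in turn gave 14 to 136 genes past the threshold, and 12 of the 121 passed in all 8 such fits: MSLN, SAT1, TYMP, PTGES3P3, ACADVL, DKK1, NT5E, CCDC80, CTGF, FAM27C, BST2 and IFI6. The lowest counts, 14, 15, 15 and 18, came from leaving out one of the 4 OVCAR8 libraries. None of the 121 changed sign in any setting tried.

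MSLN, ACADVL and CD24 fell in both lines but further in OVCAR8. MSLN encodes mesothelin, a surface glycoprotein of mesothelial and ovarian tumour cells. It went from 30.8 and 31.9 RPKM with DMSO to 6.34 and 5.57 with EPZ015666 in OVCAR8, and from 1.9 and 2.22 to 0.612 and 0.698 in BT549. All treated libraries lay below all controls of their line. The level in treated OVCAR8 was 0.19 of that of the control, and in BT549 0.317. The line difference was 1.33 ± 0.104 (SE, adjusted p = 0.00638), and 0.75 (adjusted p = 0.011) in limma-voom on recovered reads, which carries no added 1 RPKM. ACADVL encodes the very long chain acyl-CoA dehydrogenase of mitochondrial fatty acid oxidation. Its RPKM fell from 19.6 and 20 to 5.84 and 5.57 in OVCAR8 and from 45.1 and 45.5 to 24.5 and 25.7 in BT549. The difference was 0.81 ± 0.0691 (SE, adjusted p = 0.00638). Of the 8 tested genes of fatty acid oxidation, 5 fell in BT549 (11% of all tested genes) and 4 in OVCAR8 (13.1% of all). ACADVL was the only one of the 8 whose line difference passed (2.26% of all). The uncoupling protein gene UCP2 fell to 0.553 of control in BT549 and 0.517 in OVCAR8, with a difference of 0.18 (adjusted p = 0.243). CD24, a surface sialoglycoprotein, went from 115 in both libraries to 59.6 and 62.8 RPKM in OVCAR8, and from 93.2 and 85.4 to 70.4 and 70 in BT549. Its difference was 0.56 ± 0.0848 (SE, adjusted p = 0.0228). The genes FIBP (0.63) and COL6A2 (0.63), a collagen VI chain, shared this pattern of a deeper fall in OVCAR8.

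Other genes fell in OVCAR8 with no change past the threshold in BT549. TYMP, the thymidine phosphorylase gene, named here after its values were seen, went from 7.16 and 6.5 to 2.34 and 2.33 RPKM in OVCAR8. In BT549 it had 1.54 and 1.93 RPKM with DMSO and 1.39 and 1.52 with EPZ015666, ranges that almost touch. The difference was 1.08 ± 0.106 (SE, adjusted p = 0.00729). FTSJ3, a methyltransferase of ribosome assembly, stood at 0.556 of control in OVCAR8 and 1.03 in BT549 (difference 0.75). The purine salvage enzyme gene APRT stood at 0.57 and 0.926 (0.69), the enolase gene ENO2 at 0.601 and 0.944 (0.62) and the myosin gene MYO1C at 0.575 and 0.873 (0.59). All 4 passed for the line difference, with adjusted p from 0.00729 to 0.0311 in limma.

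**Figure D2:**
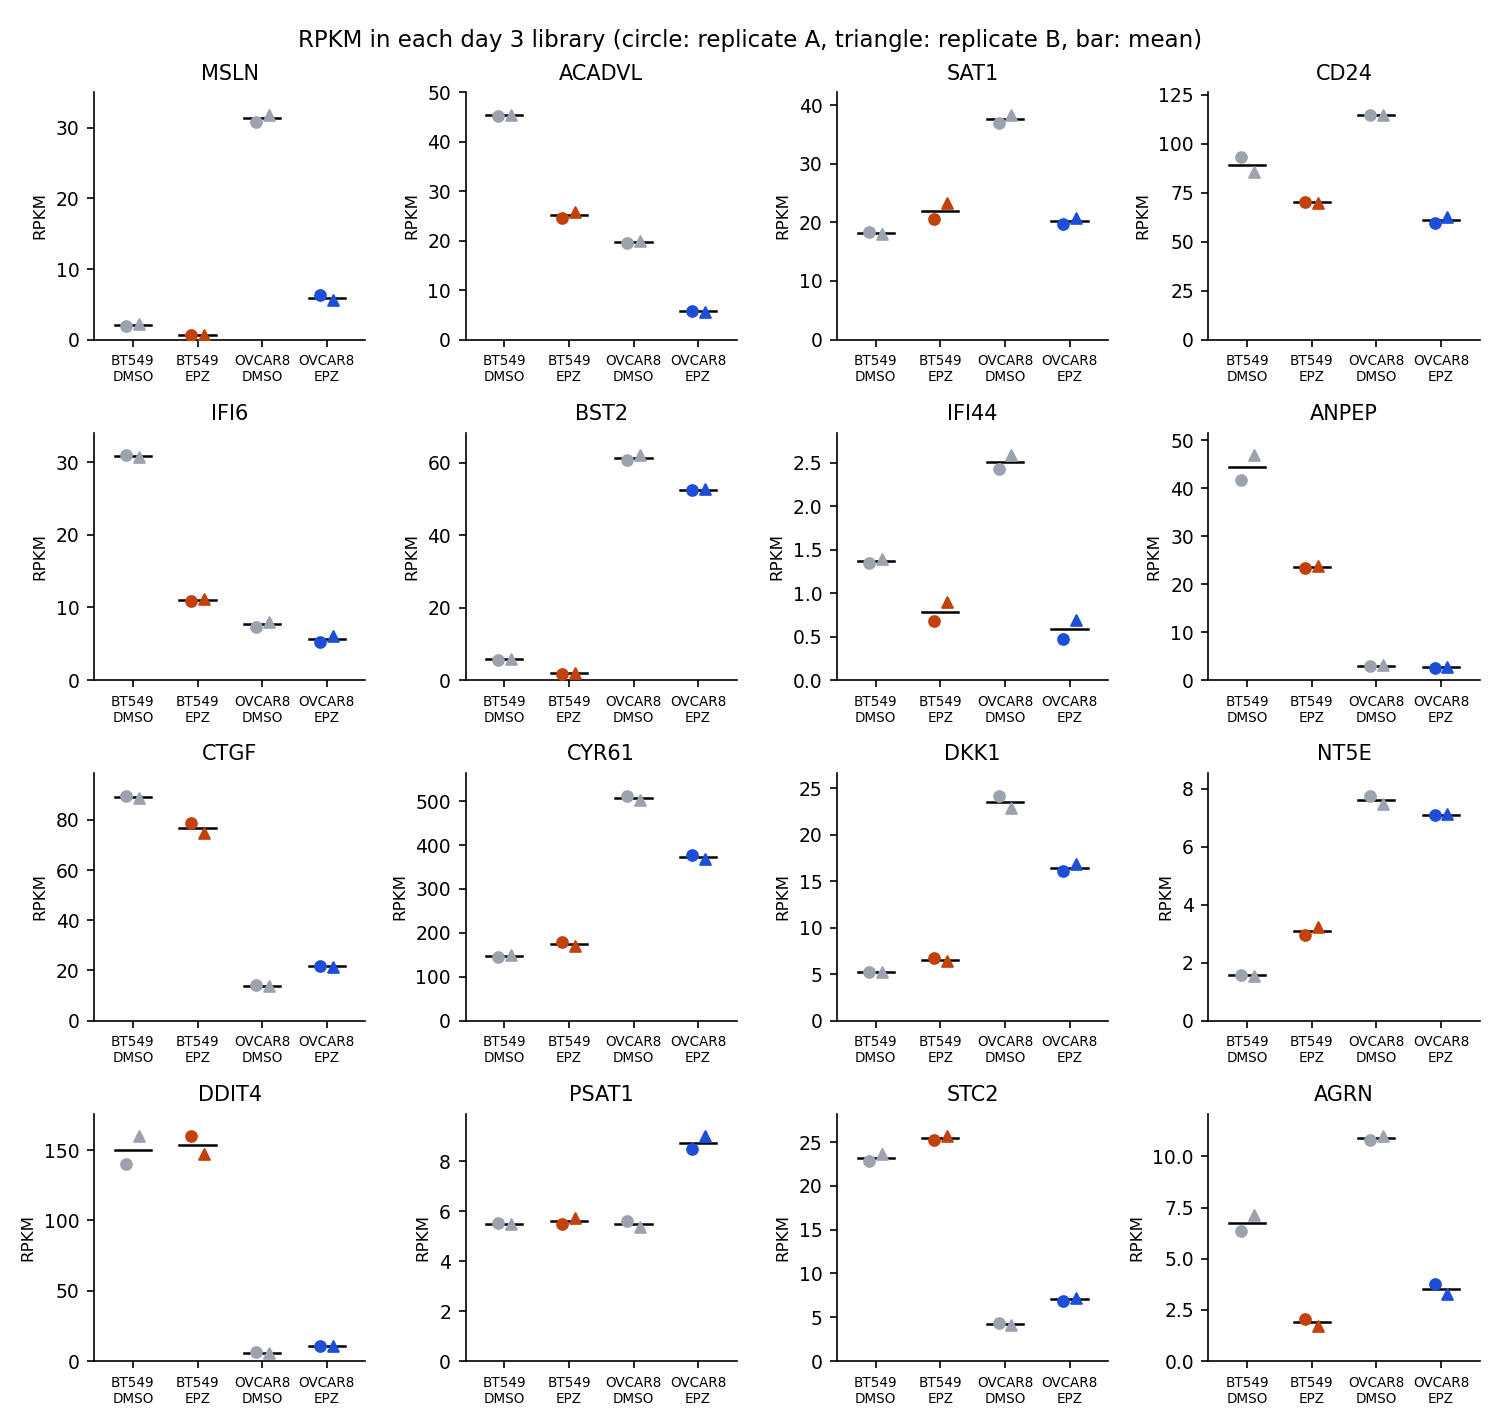
RPKM on the y axis, from 0, is shown for 16 genes in each of the 8 day 3 libraries, with circles for replicate A, triangles for replicate B and bars for the mean of a group. MSLN falls from about 31 to 6 RPKM in OVCAR8, BST2 and IFI6 fall further in BT549 than in OVCAR8, CTGF and CYR61 move in opposite ways within each line, and AGRN falls to 0.281 of control in BT549 and 0.322 in OVCAR8.

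The 21 genes that moved in opposite ways were led by SAT1, which encodes the spermidine/spermine acetyltransferase that starts polyamine breakdown. SAT1 stood at 18.4 and 18 RPKM in BT549 with DMSO and at 20.5 and 23.3 with EPZ015666. In OVCAR8 it went from 37 and 38.4 down to 19.7 and 20.8. Control levels differed between the lines, while treated levels lay within 19.7 to 23.3 RPKM in both. The difference was 1.12 ± 0.0967 (SE, adjusted p = 0.00638). DKK1, a secreted Wnt inhibitor, rose from 5.2 in both libraries to 6.7 and 6.37 RPKM in BT549 and fell from 24.2 and 22.9 to 16.1 and 16.8 in OVCAR8. Its difference was 0.78 ± 0.0723 (SE, adjusted p = 0.00715). Rises in BT549 with falls in OVCAR8 were also found for PTGES3P3 (0.99), CYR61 (0.69), AXL (0.56), DRAP1 (0.55), PCID2 (0.49), RRNAD1 (0.44), GSN (0.43), PIM1 (0.41), MXRA7 (0.41) and ACOT8 (0.28). PTGES3P3 is a processed pseudogene, and its reads may come from its parent gene or other copies. The reverse, down in BT549 and up in OVCAR8, held for MIR4482 (-3.31), FAM27C (-0.88), CTGF (-0.81), ZNF326 (-0.41), SAMD9 (-0.41), PSMA8 (-0.40), LMO4 (-0.39), ERRFI1 (-0.37) and PTPN18 (-0.37). MIR4482 rests on 0 to 8 reads per library and FAM27C on 29 to 60.

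Interferon-stimulated genes fell in BT549 and most fell in OVCAR8, with line differences of both signs. Of 26 listed, 7 were tested. All 7 fell in BT549 (11% of all tested genes), and in OVCAR8 4 fell (13.1% of all) and 1 rose (8.7%). Their median line difference was -0.373, against 0.0172 over all tested genes. In limma-voom on recovered reads it was -0.382 over the same 7 but 0.0868 over the 15 list members that entered that fit, so the sign of the list's median depends on which members are counted. The difference passed for 4 (2.26% of all tested genes). These were IFI6, BST2 and SAMD9 below 0 (0.88% of all) and IFI44 above 0 (1.38% of all). IFI6, a mitochondrial antiviral protein gene, went from 31 and 30.7 to 10.9 and 11.2 RPKM in BT549, and from 7.29 and 8.02 to 5.25 and 6.13 in OVCAR8. The groups did not overlap in either line, and the level fell to 0.358 of control in BT549 and 0.743 in OVCAR8. The difference was -1.03 ± 0.103 (SE, adjusted p = 0.00729). BST2 encodes tetherin, which holds budding virus at the cell surface. It went from 5.56 and 5.87 to 1.63 and 2.05 RPKM in BT549. In OVCAR8, where its level was higher, it stood at 60.7 and 62.2 with DMSO and at 52.6 and 52.7 with EPZ015666, a change that missed the threshold (adjusted p = 0.0724). The difference was -1.03 ± 0.102 (SE, adjusted p = 0.00729).

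IFI44, also an interferon-stimulated gene and named after its values were seen, had the reverse order. It went from 2.43 and 2.59 to 0.476 and 0.691 RPKM in OVCAR8 and from 1.35 and 1.39 to 0.679 and 0.894 in BT549. Treated OVCAR8 thus kept 0.232 of the control level and treated BT549 0.573. The difference was 0.74 ± 0.109 (SE, adjusted p = 0.0204), and 1.30 in limma-voom. ISG15, a ubiquitin-like modifier, leaned the same way with 0.363 of control in OVCAR8 and 0.664 in BT549, a difference of 0.41 that missed the threshold (adjusted p = 0.0508). IFI35 fell to 0.6 of control in BT549 and 0.543 in OVCAR8, with a difference of -0.01 (adjusted p = 0.948). SAMD9, a restriction factor of poxviruses, stood at 1.31 and 1.23 RPKM in control and 0.935 and 0.912 in treated BT549, and at 0.969 and 1.04 in control and 1.28 and 1.24 in treated OVCAR8. The difference was -0.41 ± 0.0505 (SE, adjusted p = 0.0134), and -0.78 in limma-voom. IRF7, the factor that amplifies interferon production, fell from 4.99 and 6.08 to 2.65 and 2.69 RPKM in BT549. In OVCAR8 it had 3.58 and 3.7 with DMSO and 3 and 2.83 with EPZ015666 (adjusted p = 0.0594). Its difference was -0.58 ± 0.107 (SE, adjusted p = 0.0443). Of the 10 tested genes of interferon signalling and nucleic acid sensing, 5 fell in BT549 (11% of all tested genes) and 2 in OVCAR8 (13.1% of all, so near that share). IRF7 was the only one of the 10 with a line difference (2.26% of all).

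Antigen presentation genes fell in each line with no difference past the threshold. Of 9 tested, 6 fell in BT549 (11% of all tested genes). In OVCAR8 7 fell (13.1% of all) and 1 rose (8.7%). That 0 of the 9 had a line difference is near the share over all tested genes, 2.26%. HLA-B, a class I heavy chain, stood at 0.69 of control in BT549 and 0.661 in OVCAR8 (difference 0.18, adjusted p = 0.173). The widest difference in the list belonged to B2M, the class I light chain, at 0.915 and 1.4 (difference -0.53, adjusted p = 0.127).

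YAP targets split within the list and between the lines. Of 13 listed, 6 were tested, with a median line difference of 0.377, against 0.0172 over all genes. The difference passed above 0 for 3 (1.38% of all tested genes) and below 0 for 1 (0.88% of all). Over the 11 members in limma-voom the median was 0.179. CYR61, a matricellular protein gene, rose from 146 and 149 to 179 and 171 RPKM in BT549 and fell from 513 and 503 to 377 and 369 in OVCAR8. Its difference was 0.69 ± 0.0747 (SE, adjusted p = 0.00879). CTGF, its close relative, did the opposite. It went from 89.7 and 88.7 to 78.8 and 74.8 RPKM in BT549 and from 14.1 and 13.8 to 21.9 and 21.3 in OVCAR8. The difference was -0.81 ± 0.071 (SE, adjusted p = 0.00638), and no control library overlapped a treated one in either line for either gene. NT5E, the ecto-nucleotidase CD73, rose from 1.59 and 1.53 to 2.96 and 3.23 RPKM in BT549, while OVCAR8 had 7.77 and 7.48 with DMSO and 7.08 and 7.14 with EPZ015666 (adjusted p = 0.234). Its difference was 0.77 ± 0.0674 (SE, adjusted p = 0.00638). AXL, a receptor tyrosine kinase, rose 1.33-fold in BT549 and fell to 0.867 of control in OVCAR8. AMOTL2 and FJX1 are the other tested members, and their line differences missed the threshold. In BT549 AMOTL2 fell (-0.27, adjusted p = 0.0446), as CTGF did.

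Genes of TGF-beta response and mesenchymal state leaned to BT549. Of 9 tested, 4 passed with a positive line difference (1.38% of all tested genes) and 0 with a negative one (0.88% of all). The median was 0.216 (0.0551 over the 16 members in limma-voom). TAGLN, an actin-binding protein gene, rose from 13.4 and 13.6 to 19.5 and 18.7 RPKM in BT549, and had 2.92 and 2.74 with DMSO and 2.57 and 2.72 with EPZ015666 in OVCAR8. SNAI2, the transcription factor SLUG, rose from 14 and 13.2 to 19.7 in both treated BT549 libraries, and stood at 1.91 in 3 of the OVCAR8 libraries and at 2.18 in treated replicate B. TGFBI, a secreted matrix protein gene, fell from 18.4 and 18.2 to 12.3 and 12.5 RPKM in OVCAR8, and had 39.1 and 40.9 with DMSO and 42.5 and 44.5 with EPZ015666 in BT549. The tropomyosin gene TPM1 also fell in OVCAR8, to 0.763 of control. The line differences were 0.54 for TAGLN, 0.44 for SNAI2, 0.65 for TGFBI and 0.44 for TPM1, with limma adjusted p of 0.0155, 0.0385, 0.00879 and 0.0413. TAGLN and SNAI2 thus rose in BT549, whereas TGFBI and TPM1 fell in OVCAR8. SNAI2 passed in 0 of the 8 fits that leave out a library and had an adjusted p of 0.0758 in limma-voom.

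**Figure D3:**
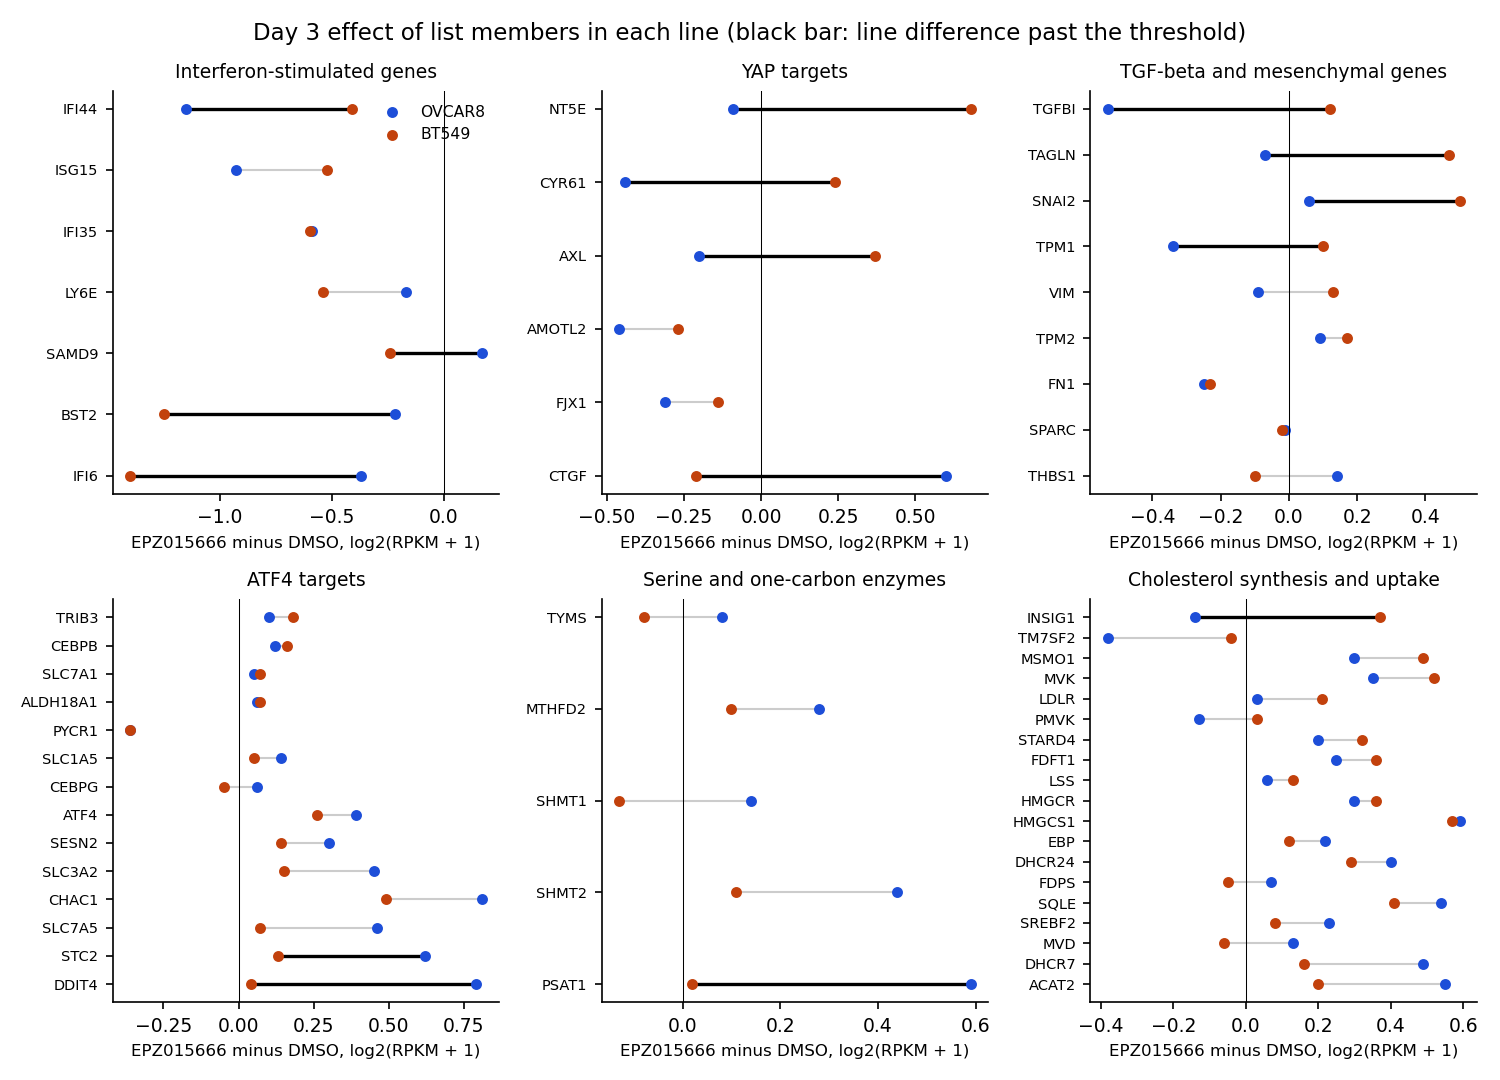
Each row is a tested member of a gene list, with the EPZ015666 minus DMSO change in log2(RPKM + 1) on the x axis in OVCAR8 (blue) and BT549 (orange), and a black bar where the line difference passed the test. Interferon-stimulated genes show differences of both signs, the 5 serine and one-carbon enzymes drawn all lie further right in OVCAR8, and 18 of the 19 cholesterol genes have grey bars.

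Enzymes of serine synthesis and one-carbon metabolism rose in OVCAR8. Of 6 tested, 4 rose in OVCAR8 (8.7% of all tested genes) and 0 passed in BT549 (19.9% of all). All 6 line differences were below 0, with a median of -0.302. PSAT1, the aminotransferase of serine synthesis, stood at 5.52, 5.47, 5.47 and 5.73 RPKM in the BT549 libraries, controls first, and rose from 5.6 and 5.35 to 8.47 and 9 in OVCAR8. The lines thus started at the same level, and the difference was -0.56 ± 0.0689 (SE, adjusted p = 0.0134).

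ATF4 targets showed the same lean with fewer differences past the threshold. Of 14 tested, 7 rose (8.7% of all tested genes) and 1 fell (13.1%) in OVCAR8. In BT549 4 rose (8.89%) and 1 fell (11%). A line difference passed for 2 (2.26% of all), both below 0 (list median -0.123). DDIT4, an inhibitor of mTORC1, rose from 6.28 and 5.52 to 11 and 10.9 RPKM in OVCAR8. In BT549, where it was far more abundant, controls had 140 and 160 and treated libraries 160 and 147, which overlap. The difference was -0.75 ± 0.122 (SE, adjusted p = 0.03), and it passed in 1 of the 8 fits that leave out a library. STC2, a secreted glycoprotein gene, rose from 4.36 and 4.09 to 6.88 and 7.2 RPKM in OVCAR8 and had 22.8 and 23.6 with DMSO and 25.3 and 25.7 with EPZ015666 in BT549 (adjusted p = 0.098). Its difference was -0.49 ± 0.0699 (SE, adjusted p = 0.0196). Within the printed window length, the ATF4 element TGATGNAA, held by 3.19% of promoters, was not found before PSAT1, STC2 or DDIT4.

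MT2A and MT1E, metallothioneins that bind zinc and copper, rose in BT549. MT2A went from 92.5 and 99.1 to 130 and 135 RPKM in BT549, against 521 and 545 with DMSO and 532 and 500 with EPZ015666 in OVCAR8. MT1E went from 4.42 and 4.95 to 6.25 and 6.84 in BT549, against 197 and 195 and then 185 and 188 in OVCAR8. The treated and control groups of OVCAR8 overlapped for MT2A. The line differences were 0.51 and 0.48, with limma adjusted p of 0.0385 and 0.0484. Other family members, expressed only in OVCAR8, moved there in both directions: MT1M rose 1.33-fold (adjusted p = 0.019) and MT1L fell to 0.793 of control (adjusted p = 0.00344), both in limma over genes of either line. Metallothionein genes are near copies of each other, and reads may be shared among them. The zinc transporters SLC30A1 (0.08) and SLC39A6 (0.09) completed the 4 tested genes, and neither passed. Over all tested genes, 2.26% passed for the line difference.

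Further genes fell more in BT549. TIMELESS, a replication fork protein gene, fell in both lines, from 2.92 and 3 to 1.25 and 1.23 RPKM in BT549 and from 5.48 and 5.47 to 4.25 and 4.07 in OVCAR8. It was the only one of 8 tested genes of the ATR-CHK1 checkpoint with a line difference (2.26% of all tested genes). The difference was -0.49 ± 0.0553 (SE, adjusted p = 0.0101) and -0.86 in limma-voom. ANPEP, the aminopeptidase N gene, named after its values were seen, fell from 41.7 and 46.9 to 23.3 and 23.8 RPKM in BT549. OVCAR8 had 2.97 and 3.07 with DMSO and 2.47 and 2.78 with EPZ015666 (adjusted p = 0.167). The difference was -0.73 ± 0.0977 (SE, adjusted p = 0.0157). The plexin gene PLXNB2 stood at 0.603 of control in BT549 and at 1 in OVCAR8 (difference -0.65), and the phosphatase gene DUSP3 at 0.647 and 0.929 (-0.43). PRMT6, another arginine methyltransferase, fell from 3.08 and 3.25 to 2.44 and 2.4 RPKM in BT549, and had 3.04 and 2.87 with DMSO and 3.35 and 3.32 with EPZ015666 in OVCAR8. Its difference was -0.42 ± 0.0595 (SE, adjusted p = 0.0196).

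The drug target and its partners showed no line difference past the threshold at day 3. PRMT5 stood at 2.99 and 2.8 RPKM with DMSO and 2.84 and 3.09 with EPZ015666 in BT549, which overlap, and rose from 5.04 and 4.99 to 6.22 and 6.18 in OVCAR8. The difference was -0.23 (95% interval -0.39 to -0.07, adjusted p = 0.122). The values were -0.08 for WDR77 (interval -0.31 to 0.15) and 0.09 for CLNS1A (interval -0.03 to 0.22). EPZ015666 blocks the enzyme, so its transcript is no check of the treatment.

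Several programmes moved in both lines with few or no differences past the threshold between them. AGRN, the basement membrane proteoglycan agrin, fell from 6.35 and 7.16 to 2.06 and 1.73 RPKM in BT549 and from 10.8 and 11 to 3.76 and 3.28 in OVCAR8. That is 0.281 and 0.322 of control, and the difference was -0.02 (95% interval -0.29 to 0.25, adjusted p = 0.939). Of 7 tested laminin and basement membrane genes, 4 fell in BT549 (11% of all tested genes) and 5 in OVCAR8 (13.1% of all). A line difference passed at day 3 for 0 of the 7, near the share of 2.26% over all tested genes. At day 5 it passed above 0 for 2 of them (21.3% of all) and below 0 for 3 (15.3% of all). Genes of cholesterol synthesis and uptake rose at day 3, 10 of 19 tested in BT549 (8.89% of all) and 12 in OVCAR8 (8.7% of all). Their median effects were 0.206 and 0.229. The only one of the 19 with a line difference (2.26% of all tested genes) was INSIG1, which retains the sterol sensor in the endoplasmic reticulum. INSIG1 rose from 16.2 and 16.7 to 21.8 and 21.4 RPKM in BT549 and had 17.5 and 18.1 with DMSO and 15.7 and 16.4 with EPZ015666 in OVCAR8 (difference 0.52, adjusted p = 0.0157). CREBZF, a bZIP protein gene named after its values were seen, rose in both lines, 1.48-fold in BT549 and 2.27-fold in OVCAR8, with a difference of -0.50 (adjusted p = 0.0109). MYC had a difference of 0.57 that missed the threshold (adjusted p = 0.0529). It went from 25.1 and 25.6 to 18.2 and 17.4 RPKM in OVCAR8, and had 16 and 18.6 with DMSO and 19.2 and 17.4 with EPZ015666 in BT549. CCND1 (0.26) and CDKN1A (0.40) did not pass.

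Genes that only one line expresses cannot be compared by the line difference, since their level fixes it, and were examined within their line. With at least 5 RPKM in one line and under 1 in the other, there were 58 genes in BT549 and 71 in OVCAR8. In BT549 8 rose and 13 fell, 36.2% against 18.5% of the 7199 genes expressed in either line. In OVCAR8 13 rose and 35 fell, 67.6% against 22%. These genes are at 5 RPKM or more, while the background includes genes down to 1 RPKM. The spread of each was pooled over all 8 libraries, and the line that does not express the gene adds little to it. Errors can therefore come out too small, and the shares of 36.2% and 67.6% are not a measured excess over the background. In OVCAR8 the falls included ADAMTSL4, a matrix protein gene, from 9.17 and 9.47 to 4.14 and 3.87 RPKM. ECM1 went from 14.3 and 14.1 to 8.13 and 8.3, and the serine protease gene PRSS21 from 26.2 and 25.5 to 15.2 and 15.8. In BT549, where no treated library overlapped a control for any of the 4 named, SPON2 went from 20.8 and 24.6 to 15.4 and 14 RPKM and IGFN1 from 12.7 in both to 8.56 and 8.43. HRCT1 went from 36.5 and 37.9 to 27.1 and 27.9, and SCG2, a secretogranin gene, rose from 5.41 and 5.16 to 6.85 and 8.84. The fibrillar collagen genes COL1A2, COL3A1 and COL5A1 were in this BT549 group, and fell to 0.797, 0.762 and 0.724 of control.

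The same contrast at day 5 used other libraries, 8 with their own DMSO controls. There the line difference passed for 1958 of the 5343 genes (36.6%). One of these day 5 libraries, OVCAR8 EPZ015666 replicate B, had 4.545% of its reads at the ribosomal RNA locus, the highest share of all 24 libraries. Of the 121 genes of day 3, 115 had the same sign at day 5 (95%, against 69.6% of all tested genes), and 99 of them passed again. MSLN had 1.33 at day 3 and 1.21 at day 5, IFI6 -1.03 and -1.15, BST2 -1.03 and -1.34, ACADVL 0.81 and 0.78, and PSAT1 -0.56 and -0.85. The day 5 value of MSLN depends on the added 1 RPKM, since BT549 means went from 3.08 to 0.536 RPKM. As folds, MSLN stood at 0.174 of control in BT549 and 0.144 in OVCAR8 at day 5, which lie close together. SAT1 had 1.12 at day 3 and 0.58 at day 5. Its level in BT549 was 1.21 of control at day 3 but 0.766 at day 5, when OVCAR8 stood at 0.512. The opposite directions that SAT1 had at day 3 were thus not seen at day 5. The change of the difference between days, tested over all 16 libraries of the 2 lines, passed for 143 genes (2.68%), 13 of them among the 121. PRMT5, outside the 121, was among the 143, with -0.23 at day 3 and 0.20 at day 5. In limma its adjusted p was 0.0429 for the day 5 difference and 0.0323 for the change. Among the 121, the changes were as follows. CTGF widened from -0.81 to -1.44, ANPEP from -0.73 to -1.44, MT2A from 0.51 to 1.31 and MT1E from 0.48 to 1.08. IL7R (0.44 to 0.94), CAT (-0.57 to -1.05) and MAN1B1 (-0.40 to -0.78) widened too. TIMELESS narrowed from -0.49 to -0.15, FKBP10 went from 0.56 to 0.01 and GSN from 0.43 to -0.00. CD24 was the only one of the 121 to pass with the opposite sign, at 0.56 on day 3 and -0.33 on day 5. Its level by then was 0.367 of control in BT549 and 0.464 in OVCAR8, so that the deeper fall lay in BT549. MIR4482 (-3.31 to 0.29) and ADAMTS1 (0.33 to -0.15) were the remaining 2.

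**Figure D4:**
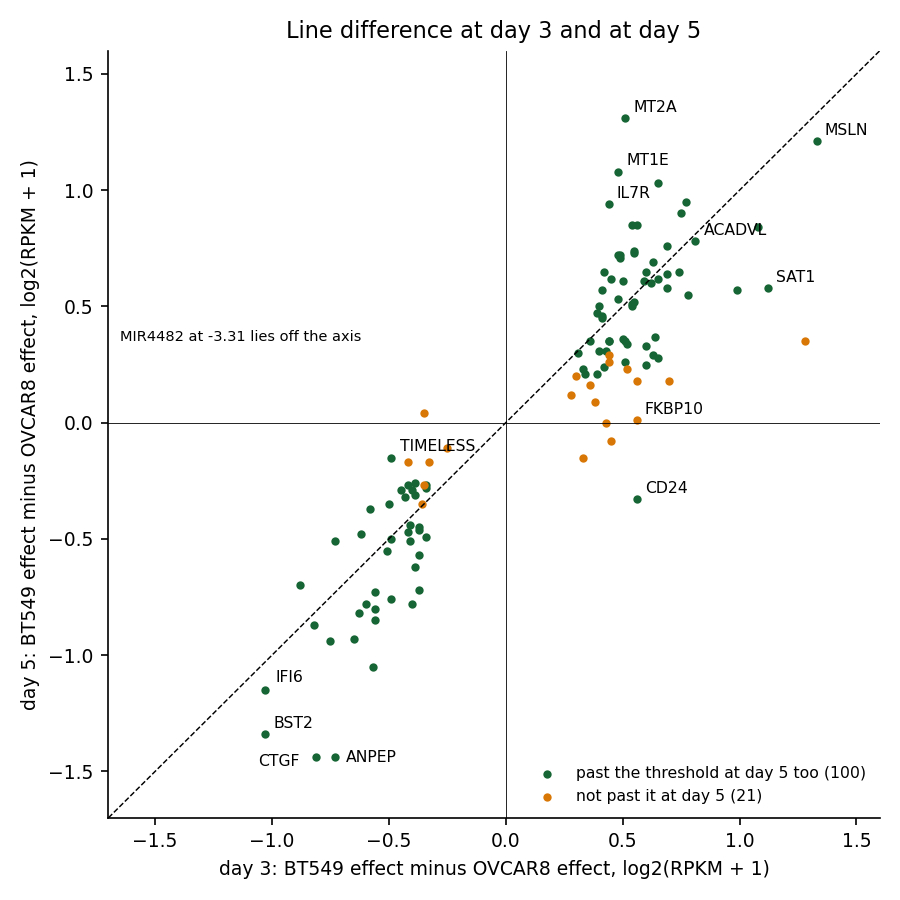
The line difference in log2(RPKM + 1) of the 121 genes is shown at day 3 on the x axis and at day 5, from separate libraries, on the y axis. Points are green where the gene passed at day 5 too, the dashed line marks equal values, and MIR4482 (-3.31 at day 3) is off the axis. CTGF, ANPEP, MT2A and MT1E lie further from 0 at day 5, and CD24 lies on the other side of 0.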

How the data were processed

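Per the labels' protocols, poly(A) RNA was sequenced from BT549 and OVCAR8 after 3 days in 5 µM EPZ015666 or DMSO. Reads were counted with featureCounts on GRCh38, per the submitters' processing notes. Not given in the sources used here: aligner, versions and annotation. The authors deposited RPKM for 16591 genes. Each value times the GENCODE v29 gene span gave whole reads (100% of nonzero values tested, within 0.02 of a read), so depth could be recovered for the 16544 genes with 1 span. RPKM are not counts, so log2(RPKM + 1) was fitted with limma 3.58.1 (R 4.3.3, trend option), 1 mean per group over 8 libraries, with 4 residual and 3.21 prior degrees of freedom and a threshold of 0.05 after Benjamini-Hochberg adjustment. The spread was pooled over the groups.

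Replicate letters were taken as labels, not pairs. The correlation of A minus B between DMSO and EPZ015666 was -0.22 in BT549 and -0.0921 in OVCAR8. Members and the 49 gene lists were chosen with earlier results of these data known. Named genes were the 15 largest line differences each way past the threshold (12 were eligible below 0) with at least 5 RPKM in the higher group of each line and no overlap between lines, opposite-sign genes, list members with the smallest adjusted p, genes expressed in 1 line and a set of key genes; the text gives part of them, and some items are not reported here. In simulated data of 5343 genes for this contrast, 87% of 100 genes with a difference of 1.5-fold and 100% of 100 with 2-fold were recovered, and 11 unchanged genes were called. Every simulated gene had the same spread, an SD of 0.1 on the log2 scale in all groups. Real genes and groups differ in spread, so these shares are not the recovery rate in the real data. Alternatives were another pseudocount (0.1), other filters, scaling, replicate blocks, larger fits, limma-voom on recovered reads and leaving out each library. Promoters are RefSeq sequences, with 11 of 14 genes looked up matched.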

Additional observations from a re-analysis of the deposited data

Results flagged for a closer look

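Each gene below is listed because its drug effect differed between BT549 and OVCAR8 by a test of the difference itself, limma's interaction contrast with Benjamini-Hochberg adjustment over all 5343 genes. Values are the BT549 effect minus the OVCAR8 effect on the log2(RPKM + 1) scale. The effect was higher in BT549 for SAT1 (1.12), PTGES3P3 (0.99), ACADVL (0.81), DKK1 (0.78), FTSJ3 (0.75), CYR61 (0.69), APRT (0.69), LY6K (0.65), TGFBI (0.65), FIBP (0.63), COL6A2 (0.63), ENO2 (0.62), MYO1C (0.59), AXL (0.56) and CD24 (0.56). It was also higher there for DRAP1 (0.55), INSIG1 (0.52), ICAM1 (0.48), NT5E (0.77), TAGLN (0.54), SNAI2 (0.44), MT2A (0.51), MT1E (0.48), NDRG1 (0.33), FDXR (0.39), PRPF3 (0.36), NDUFV1 (0.41), MSLN (1.33), IFI44 (0.74), TYMP (1.08) and TPM1 (0.44). The effect was lower in BT549 for IFI6 (-1.03), BST2 (-1.03), CTGF (-0.81), DDIT4 (-0.75), PLXNB2 (-0.65), PSAT1 (-0.56), HIST1H1C (-0.56), C1orf216 (-0.51), STC2 (-0.49), DUSP3 (-0.43), LMO4 (-0.39), POP5 (-0.35), PRMT6 (-0.42), SAMD9 (-0.41), IRF7 (-0.58), TIMELESS (-0.49), ANPEP (-0.73) and CREBZF (-0.50). In limma-voom FDXR had 0.30 and missed the threshold (adjusted p = 0.179), as did SNAI2 (0.43, adjusted p = 0.0758). The cause of the line differences was not tested.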

How the results depend on the processing

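The 121 line differences kept their sign in every setting tried in which the gene was tested, and the count past the threshold varied. It was 128 with a pseudocount of 0.1 and 122 with median-of-ratios scaling, 559 with no filter on low values, 358 with 1 RPKM in either line and 51 with 5 RPKM in each line, where fewer genes are tested. It was 619 in a fit of 16 libraries and 871 in one of 24, which have more residual degrees of freedom, 814 with limma-voom and 596 after a GC and span correction of each library chosen after the data were seen (the cause was not tested). Opposite-sign genes, 21 in the report, numbered 9 with 5 RPKM, 64 and 88 in the larger fits, 91 with limma-voom and 80 after the GC and span correction. The BT549 effect passed in 304, 1754, 2068, 2814 and 1797 genes under the same 5 settings. The OVCAR8 effect passed in 435 genes with 5 RPKM, 2190 with no filter, 1993 in the fit of 24, 3044 with limma-voom and 1786 after the correction. Leaving out 1 library gave 14 to 136 line differences, 2 to 25 opposite-sign genes, 453 to 900 BT549 effects, 427 to 1373 OVCAR8 effects and, for the day 5 line difference, 1302 (without BT549 EPZ015666 replicate A) to 1665 genes. The low counts of line differences came without OVCAR8 DMSO A (14) or B (15) or OVCAR8 EPZ015666 A (15) or B (18). Without BT549 DMSO A the count was 83, and without BT549 EPZ015666 A or B 60 and 66. In these fits the lone library of a group takes its spread from the other groups. A replicate block within each line left 0 line differences (746 at an unadjusted p under 0.05, limma), 0 opposite-sign genes, 429 BT549 and 567 OVCAR8 effects. A replicate block shared by both lines left 62 line differences and 9 opposite-sign genes. The labels do not make the letters pairs. With the letters crossed in BT549, a pairing chosen after the data were seen, the block left 75. Genes expressed in 1 line numbered 44 past the threshold in BT549 and 92 in OVCAR8 with limits of 2 and 0.5 RPKM, against 21 and 48. WDR77 and AGRN, a line difference, changed sign. WDR77 ranged from -0.16 to 0.00 over the fits without 1 library, with 0.00 without BT549 EPZ015666 A, and AGRN from -0.10 to 0.06. AGRN was at 0.05, 0.06 and 0.06 without BT549 DMSO B, BT549 EPZ015666 B or OVCAR8 EPZ015666 A, and at 0.01 after the GC and span correction. Depth limits the low genes: MIR4482 has at most 8 reads in a library.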

Other observations

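Genes of the mitochondrial genome rose in OVCAR8 for 6 of 13 tested (8.7% of all tested genes). In BT549 0 of 13 passed (19.9% of all). The median effects were 0.326 in OVCAR8 and 0.107 in BT549. None of the 13 line differences passed in limma (2.26% of all tested genes), and their median was -0.225, against 0.0172 over all tested genes. Leaving out 1 library moved that median between -0.372 (without OVCAR8 EPZ015666 replicate B) and -0.105 (without replicate A of that group). MT-ND2, a subunit of complex I, stood at 1.51 times control in OVCAR8 and 1.19 in BT549 (difference -0.34, adjusted p = 0.158). Cytosolic ribosomal protein genes had 64 of 67 line differences above 0, and 0 passed (2.26% of all tested genes). Genes of a list are not independent replicates. The median of this list was 0.13, against 0.0172 over all tested genes. It ran from 0.0756 (without BT549 EPZ015666 replicate B) to 0.197 (without replicate A of that group). Genes of DNA replication had 22 of 26 below 0, with a median of -0.131, and 0 passed (2.26% of all tested genes). Of the 26, 8 fell in BT549 (11% of all) and 2 in OVCAR8 (13.1% of all). At day 5 the lean of this list was reversed, with a median of 0.11, against 0.0291 over all tested genes. Past the threshold at day 5 were 11 members higher (21.3% of all tested genes) and 1 lower (15.3% of all). The change between days was not tested for the list. Tubulin genes had 7 of 7 above 0, and 0 passed (2.26% of all tested genes). Of the 7, 2 fell in BT549 (11% of all) and 5 in OVCAR8 (13.1% of all).

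The genes RMRP (an RNA of a ribonuclease), FP236383.3, FP671120.4 and RNA5-8SN2 had line differences with wide errors, and none passed in limma. RMRP had 4.58 ± 1.86 (SE, adjusted p = 0.2327), FP236383.3 4.01 ± 2.25, FP671120.4 3.88 ± 2.19 and RNA5-8SN2 3.03 ± 1.48. The libraries with the largest share of ribosomal RNA locus reads were BT549 EPZ015666 replicate A (1.388%) and OVCAR8 DMSO replicate A (0.7998%), and their part in these values was not tested.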
